A study of Mus musculus with 6 samples.

Results

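The miR-23, miR-27 and miR-24 microRNAs (miRNAs, short RNAs that lower the output of messenger RNAs they pair with) were followed in EB3 cells, a line of mouse embryonic stem (ES) cells of 129/Ola background. The 5 mature strands mmu-miR-23a, mmu-miR-27a, mmu-miR-23b, mmu-miR-27b and mmu-miR-24, written below without the species prefix, were taken by name from the 611 mouse miRNAs on a single-colour Agilent array, with star strands left out. The samples were 3 labelled Activin (+), cells differentiated with Activin, and 3 labelled Activin (-), the control, each on 1 array. The protocol text gives Activin at 10 ng/ml over 3 days as embryoid bodies and 15 days on gelatin, with harvest on day 18. That text is the same for all 6 samples, so whether the control cells were undifferentiated or were differentiated without Activin is not given in the sources used here. Nor do they state that replicate samples were separate cultures, so the spread behind each p-value may be technical.

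The members are encoded by a pair of paralogous clusters, each holding a miR-23, a miR-27 and a miR-24 hairpin that are transcribed together. Both clusters are known from endothelial, heart, muscle and blood cells, and miR-27 restrains the making of fat cells. They also touch the pathway that Activin uses. miR-24 has been reported to repress the Activin type I receptor ALK4 in human blood progenitors, and the miR-23b cluster to repress Smad genes in mouse fetal liver.

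In the RefSeq annotation of GRCm38.p6, the miR-23a, miR-27a and miR-24-2 hairpins lie within 404 bases on the plus strand at chr8:84208518-84208921, between the coding genes Nanos3 and Zswim4. The miR-23b, miR-27b and miR-24-1 hairpins lie within 792 bases on the plus strand at chr13:63300484-63301275, inside the range of the coding gene Aopep. The array files carry no coordinates. Of the 5 members, 4 matched a RefSeq mature strand, shown here 5′ to 3′ because the paralogs are so alike. How far the probes tell paralogs apart was not tested. Capitals mark the seed, bases 2 to 8, the stretch that chooses targets.
miR-23a: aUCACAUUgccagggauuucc
miR-27a: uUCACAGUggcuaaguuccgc
miR-27b: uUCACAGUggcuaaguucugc
miR-24: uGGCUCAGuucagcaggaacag

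miR-27a and miR-27b shared the seed and 20 of 21 bases, and differed by C19U, counted from the 5′ end with the miR-27a base first. miR-24 has the same sequence from both hairpins, so its signal sums the clusters. The star strands of its hairpins can tell the loci apart, and are shown with capitals after their 16 shared first bases.
miR-24-1*: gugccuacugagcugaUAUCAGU
miR-24-2*: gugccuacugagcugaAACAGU

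Signals are background-subtracted spot intensities, averaged over 20 spots per miRNA, divided by the 75th percentile of 59 probes detected on all arrays, floored at -4.94 and given as log2. A miRNA was called detected on an array where over 0.5 of the usable spots of 1 of its probes were well above background. Binding strength differs from probe to probe, so levels of different miRNAs are not compared. Activin (+) 2 and Activin (-) 1 were dim, with a 75th percentile of 177 and 249 intensity units, against 427 to 616 on the other 4 arrays. Of 8 ES cell markers 7 were detected on at least 1 array, of 5 mesenchymal and smooth muscle markers 3, of 5 epithelial markers 3, of 2 endothelial markers 1, of 2 neural markers 1, of 4 striated muscle markers 1 and of 4 blood markers 0. The ES markers not detected on any control array were miR-290-5p, miR-302b and miR-302d, and miR-290-5p was detected on no Activin array either. miR-302b and miR-302d were each detected on 2 of 3 Activin arrays. The mesenchymal markers miR-143 and miR-145 were detected on no array. A sum over markers weighs the brightest probes most. The detected ES markers summed to 5.37 to 7.36 in scaled signal with Activin and to 6.01 to 15.8 in control. The mesenchymal ones summed to 1.11 to 1.32 with Activin and to 0.701 to 1.04 in control. Epithelial ones summed to 0.219 to 0.406 with Activin and to 0.209 to 0.303 in control. The endothelial one, miR-126-3p, was at 0.0908 to 0.149 with Activin and at 0.0326 to 0.105 in control. It was detected on 2 Activin arrays and 1 control array, and 0.0326 is the floor, not a measured level. The part of these markers in the results below was not tested. In such bulk samples, fewer cells of a type and less RNA per cell cannot be told apart.

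No member passed the test between the groups. miR-23a and miR-27a, neighbours in 1 cluster, averaged 1.41-fold and 1.42-fold higher with Activin without passing. miR-23b and miR-24 had log2 fold changes of 0.04 and 0.15, and miR-27b was too dim to test. Differences between members were not tested, and the 4 intervals overlap. Of the 4 tested members, 0 had an adjusted p under 0.05 in a linear model with moderated variances (limma, Benjamini-Hochberg over 79 miRNAs), where 1 of the 79 did, or 1.27%. The median log2 fold change was 0.32 over the 4 and 0.17 over all 79, of which 9 had an unadjusted p under 0.05. None of those 9 was a member.

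miR-27a, the miR-27 of the miR-23a cluster, had log2 signals of -2.24, -2.20 and -2.27 on the Activin arrays, against -3.18, -2.75 and -2.31 on the control arrays. All 3 Activin arrays lay above all 3 control arrays, and they lay close together, while the control arrays were spread. The means were -2.24 ± 0.03 with Activin and -2.75 ± 0.43 in control (SD, n = 3 each). The log2 fold change was 0.51 with an SE of 0.30 and a 95% interval of -0.07 to 1.09, and did not pass (limma adjusted p = 0.427). Groups without overlap, higher with Activin, were found for 11.4% of the 79 miRNAs, and here for 1 of 4 members. The gap between the lowest Activin array and the highest control array was 0.04, while the error of those arrays from their replicate spots was 0.024 and 0.027. On the dim Activin (+) 2 that error was 0.118. The SD of 0.03 between the Activin arrays is thus smaller than the error of 1 of them.

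miR-23a, the first hairpin of the same cluster, had log2 signals of -2.58, -2.71 and -3.01 with Activin, against -3.62, -3.30 and -2.87 in control. The groups overlapped, since Activin (+) 3 lay below Activin (-) 3. The means were -2.77 ± 0.22 with Activin and -3.27 ± 0.38 in control (SD, n = 3 each). The log2 fold change was 0.50 with an SE of 0.30 and a 95% interval of -0.08 to 1.08 (limma adjusted p = 0.427). For both miR-23a and miR-27a the lowest array was the dim Activin (-) 1, and without it the log2 fold changes were 0.32 and 0.29. Background correction by normexp turned both below 0, to -0.28 and -0.16, where the median of all 79 was -0.31.

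miR-23b, the paralog of miR-23a in the other cluster, had log2 signals of -2.64, -2.29 and -2.83 with Activin, against -2.97, -2.37 and -2.56 in control. The groups interleaved. The means were -2.59 ± 0.27 with Activin and -2.63 ± 0.31 in control (SD, n = 3 each), with a log2 fold change of 0.04 (SE 0.29, limma adjusted p = 0.956). The 95% interval of -0.54 to 0.62 spans a 0.687-fold to a 1.54-fold ratio, so a moderate difference in either direction was within the error, the fold changes of miR-23a and miR-27a included. Its sign turned with shifts that move all miRNAs alike: the median of all 79 was 0.17 here, 0.09 without scaling, where miR-23b was at -0.034, and 0.03 with median centring, where it was at -0.10.

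miR-24, which sums both clusters, had log2 signals of -1.49, -1.98 and -1.93 with Activin, against -2.43, -1.77 and -1.63 in control. Activin (+) 1 was the highest array and Activin (-) 1 the lowest, and the others were mixed. The means were -1.80 ± 0.27 with Activin and -1.95 ± 0.42 in control (SD, n = 3 each). The log2 fold change was 0.15 with an SE of 0.30 and a 95% interval of -0.44 to 0.73 (limma adjusted p = 0.813), and it turned to -0.095 without Activin (-) 1.

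**Figure D1:**
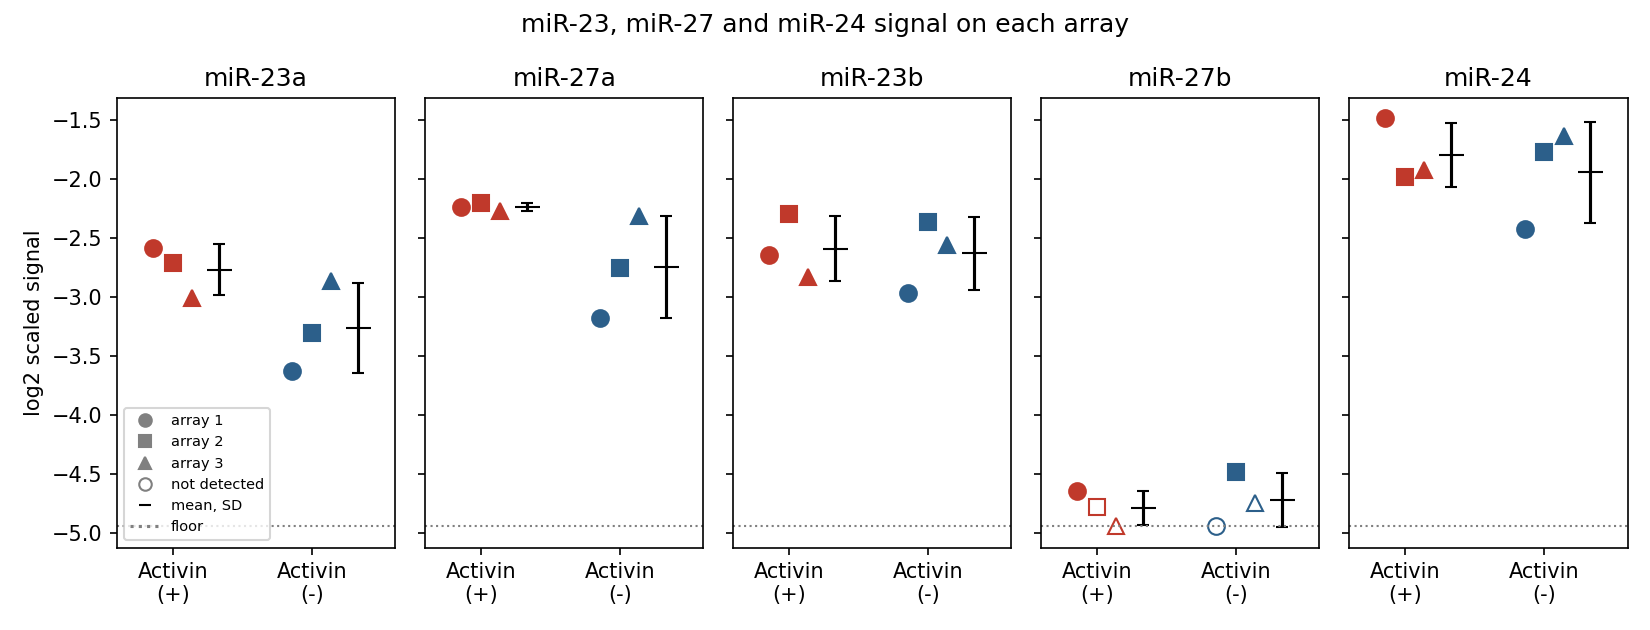
Log2 scaled signal (vertical axis) of the 5 members on each array, with Activin (+) in red left of Activin (-) in blue. Shapes are array numbers, open symbols are arrays where the miRNA was not detected, black bars are mean and SD (n = 3) and the dotted line is the floor at -4.94. The Activin arrays of miR-27a sit at -2.27 to -2.20, above its 3 control arrays. Heights are not comparable between panels.

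miR-27b, the paralog of miR-27a, was near the limit of detection in both groups. It was detected on 1 of 3 Activin arrays and 1 of 3 control arrays, and on 2 and 2 by the software's own call. Its mean intensities were 22.8, 6.45 and 17.5 units with Activin, against 6.09, 27.6 and 16.0 in control. The dim arrays gave the lowest value of each group. It entered no test, and its log2 means of -4.79 ± 0.15 with Activin and -4.72 ± 0.23 in control (SD, n = 3 each) include 1 array of each group at the floor. Its more responsive probe had 0 to 10 of 10 spots well above background on an array, and its other probe had 0 on all 6 arrays.

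The star strands with values on the arrays gave no signal to tell the clusters apart. miR-24-1*, miR-24-2*, miR-27a* and miR-27b* were detected on 0 of 6 arrays, with 0 of 480 spots well above background. Their mean intensities were -6.81 to 2.85 units with Activin and -5.33 to 6.92 in control. The split of the miR-24 signal between Mir24-1 and Mir24-2 is thus not measured on these arrays.

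Among the 79 tested miRNAs ordered by log2 fold change, miR-27a stood at rank 8 from the top, miR-23a at rank 10, miR-24 at rank 43 and miR-23b at rank 47. Relative to the median of all 79, miR-27a lay at 0.34, miR-23a at 0.33, miR-24 at -0.02 and miR-23b at -0.12. Scalings that shift all miRNAs of an array alike cannot move these values, while quantile scaling and normexp background can. With quantile scaling miR-27a lay at 0.34, miR-23a at 0.29, miR-24 at -0.0074 and miR-23b at -0.27. With normexp they lay at 0.15, 0.02, 0.10 and -0.15 in that order. A log2 fold change above 0 was found for all 4 tested members and for 63.3% of the 79.

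**Figure D2:**
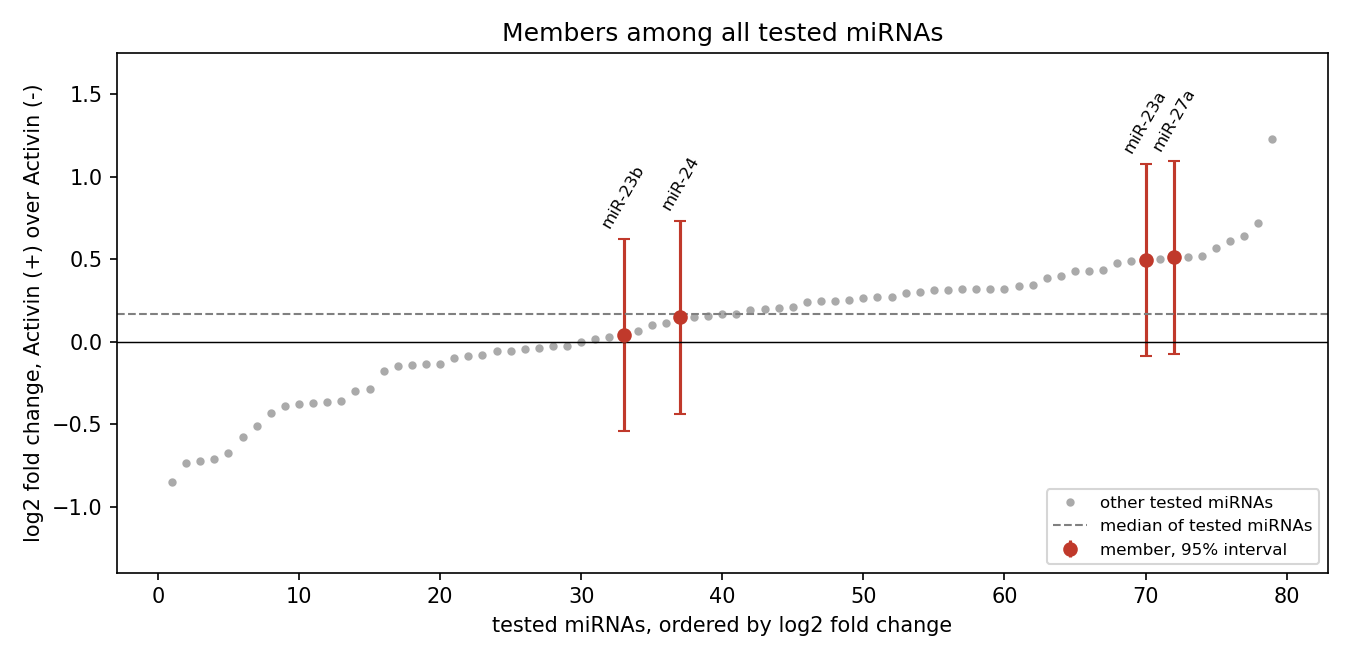
Log2 fold change of Activin (+) over Activin (-) (vertical axis) for the 79 tested miRNAs in rising order (horizontal axis). Red points are the 4 tested members with 95% intervals, and the dashed line is the median of 0.17. miR-23a and miR-27a lie at 0.50 and 0.51 near the upper end, miR-23b and miR-24 at 0.04 and 0.15, and all 4 intervals cross 0.

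The clusters could be compared within each array, where a ratio of 2 miRNAs does not depend on a scaling by 1 constant per array. Quantile scaling can still change it. The size of such a ratio has no meaning of its own, since the probes differ, but its change over arrays does. The miR-23a to miR-23b log2 ratio was 0.06, -0.42 and -0.17 on the Activin arrays, against -0.66, -0.94 and -0.31 on the control arrays. The groups overlapped, as Activin (+) 2 lay below Activin (-) 3. The means were -0.18 ± 0.24 with Activin and -0.63 ± 0.31 in control (SD, n = 3 each), a difference of 0.46 or 1.37-fold towards miR-23a with Activin. No p is given for this ratio, because the members were chosen with earlier results of these data known. Without both dim arrays the difference was 0.57, and with normexp background 0.17.

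The miR-27a to miR-27b log2 ratio differed by 0.58 in the same direction, with 2.40, 2.58 and 2.67 on the Activin arrays, against 1.76, 1.73 and 2.43 on the control arrays. miR-27b was detected on only 2 of these arrays, Activin (+) 1 at 2.40 and Activin (-) 2 at 1.73. The other ratios rest on signal not well above background. On Activin (+) 3 at 2.67 and Activin (-) 1 at 1.76 miR-27b was set to the floor, so these ratios carry the miR-27a signal alone. With the floor at 2 times, miR-27b had a log2 fold change of 0, and the difference of 0.51 was that of miR-27a. The groups overlapped here too.

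Within the miR-23a cluster, the miR-23a to miR-27a log2 ratio was -0.35, -0.51 and -0.74 with Activin, against -0.44, -0.55 and -0.55 in control. Its group means, -0.53 ± 0.20 with Activin and -0.52 ± 0.06 in control (SD, n = 3 each), differed by -0.01. Set against miR-24, miR-23a gave -1.10, -0.73 and -1.08 with Activin and -1.20, -1.53 and -1.23 in control. These groups did not overlap, with a difference of 0.35. That was 1 of the 6 ratios between members detected on all arrays, while 20.4% of all 1378 pairs of such miRNAs had ratios whose groups did not overlap in either direction. For miR-27a against miR-24 the difference was 0.36, and the groups overlapped, since Activin (+) 1 at -0.75 lay below Activin (-) 3 at -0.68. miR-23b against miR-24 differed by -0.11, and the groups interleaved.

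**Figure D3:**
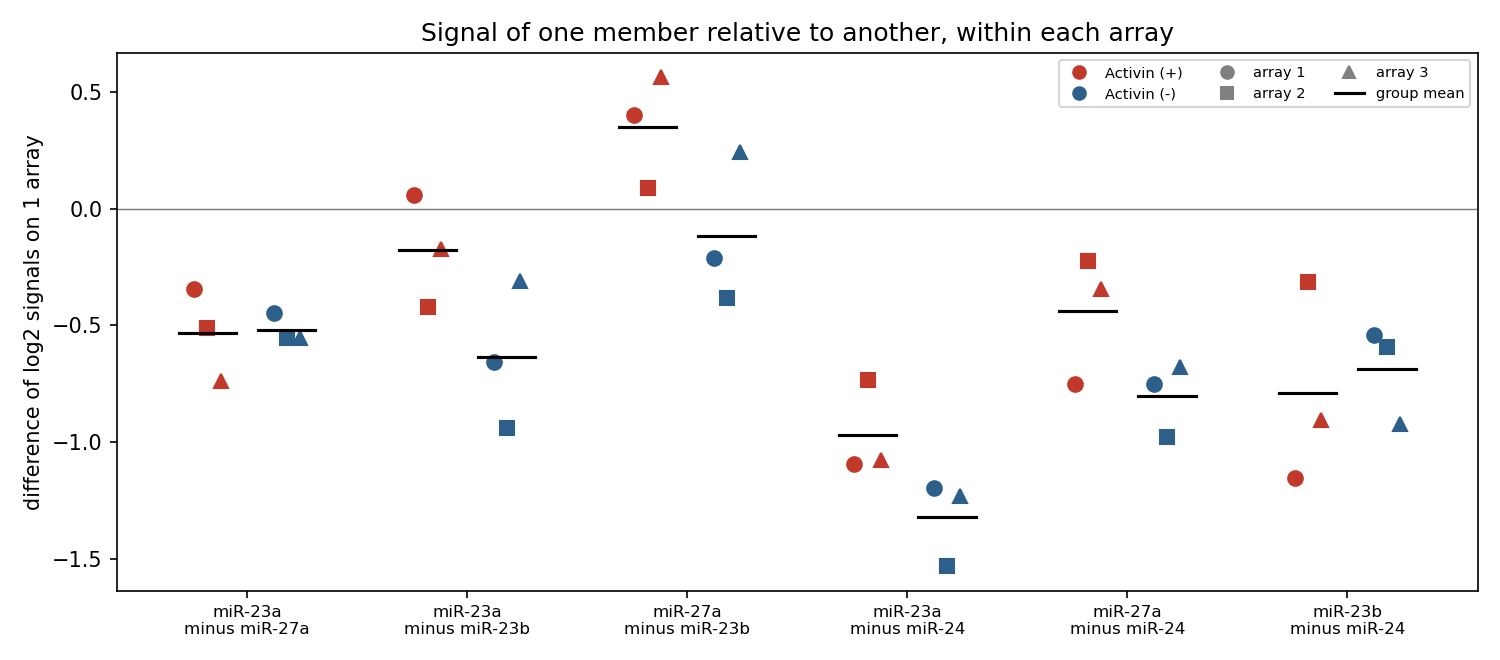
Difference of log2 signals of 2 members on 1 array (vertical axis) for the 6 pairs of members detected on all arrays, with Activin (+) in red left of Activin (-) in blue. Shapes are array numbers and black lines are group means. The miR-23a minus miR-27a means are -0.53 and -0.52, and those of miR-23a minus miR-23b are -0.18 and -0.63, with groups that overlap.

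How closely 2 miRNAs kept the same ratio was measured as the SD of their log2 ratio over the 6 arrays, among the 53 miRNAs detected on all 6. The miR-23a and miR-27a pair had an SD of 0.131. All 1378 pairs had a median of 0.414. These SDs all rest on the same 6 arrays, dim ones included. miR-27a was the fourth closest of 52 miRNAs to miR-23a, and miR-23a the fourth closest to miR-27a. On the 4 brighter arrays these ranks were 7 and 10, with an SD of 0.160 where the median of all pairs was 0.311. The other 5 pairs of members had SDs of 0.259 to 0.363 over the 6 arrays. miR-23b stood at rank 28 from both miR-23a and miR-27a, and on the 4 brighter arrays at rank 41 from both.

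Each member's closest miRNAs by this measure lay outside its cluster. For miR-23a they were miR-652 (SD 0.0906), miR-127 (0.101) and miR-342-3p (0.106). For miR-27a they were miR-300 (0.0937), miR-652 (0.0944) and miR-342-3p (0.0997). miR-23b was closest to let-7c (0.0893), let-7a (0.101) and miR-210 (0.136), where let-7 miRNAs are known to build up as ES cells differentiate. For miR-24 they were miR-106b (0.127), miR-199a-3p (0.133) and miR-125b-5p (0.136). The log2 fold changes of the 4 different miRNAs close to miR-23a or miR-27a were 0.43 to 0.52. Those of let-7c, let-7a and miR-210 were -0.06, -0.03 and 0.17. Picking miRNAs by a small SD over both groups by itself holds their fold changes near the member's own. A shared pattern was not tested.

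**Figure D4:**
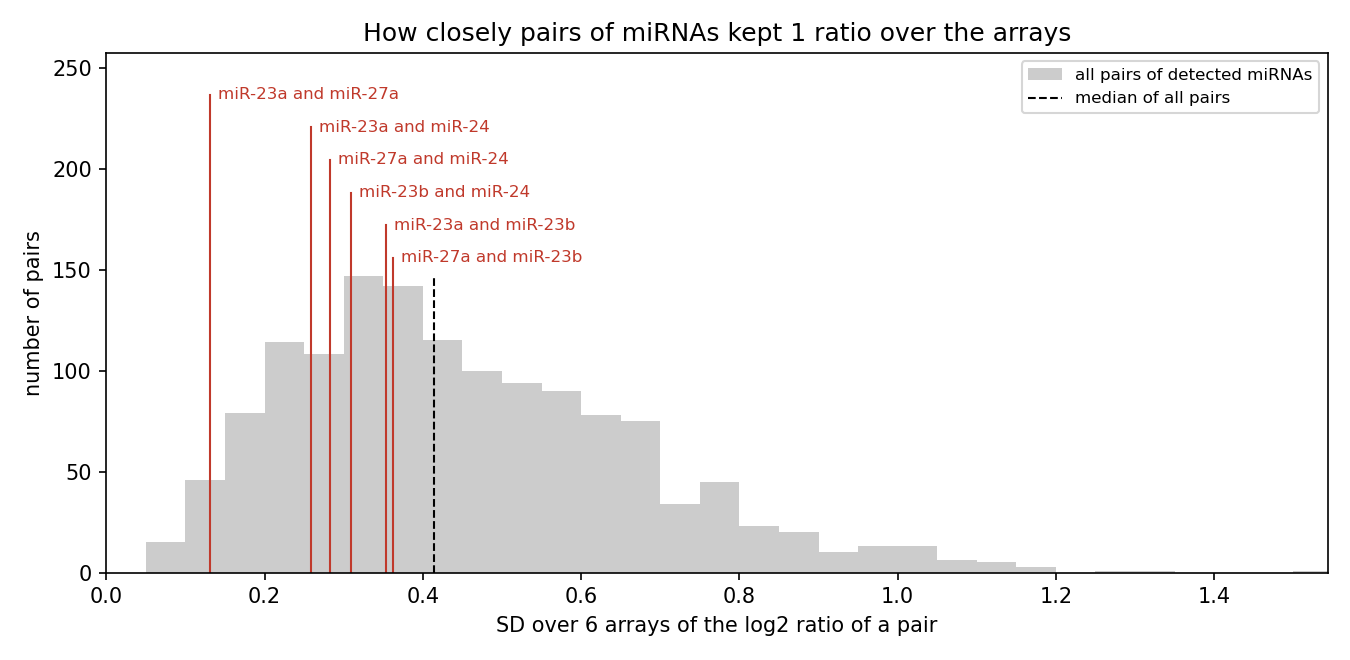
Number of pairs (vertical axis) by the SD over 6 arrays of the log2 ratio of a pair (horizontal axis), for all 1378 pairs of the 53 miRNAs detected on every array. Red lines are the 6 pairs of members and the dashed line is the median of 0.414. The miR-23a and miR-27a pair lies at 0.131, and the pairs of miR-23b with either lie at 0.354 and 0.363.

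Array by array, the members deviated together on some arrays only. Against its own mean over 6 arrays, each of miR-23a, miR-27a, miR-23b and miR-24 was low on Activin (-) 1, by -0.69 to -0.36, where the median of all 79 miRNAs was -0.42. All 4 were above their mean on Activin (-) 3, by 0.05 to 0.24, against 0.17 for all 79. On Activin (-) 2, miR-23a and miR-27a were at -0.29 and -0.26 while miR-23b was at 0.24 and miR-24 at 0.10. On Activin (+) 3 miR-27a was at 0.22 and miR-23b at -0.22.

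Each member was read by 2 probes of 10 spots. The brighter probe was detected on all 6 arrays for miR-23a, miR-27a, miR-23b and miR-24. The dimmer probe was detected on 1, 2, 1 and 5 arrays of these 4. The brighter probe gave a log2 difference of 0.59 for miR-23a and 0.57 for miR-27a, and the dimmer probe 0.19 and 0.26. For miR-27a the groups did not overlap on the brighter probe and overlapped on the dimmer one. For miR-23b the probes gave 0.04 and 0.06. The dimmer probes of miR-23a, miR-27a and miR-23b were mostly not above background, so agreement between probes could not be judged for them. For miR-24 the probes gave 0.16 and 0.11. The error of a log2 value from its spots had a median of 0.040 for miR-23a, 0.033 for miR-27a, 0.032 for miR-23b and 0.028 for miR-24. The highest was 0.141, for miR-27a on the dim Activin (-) 1. Apart from miR-27a with Activin, the SD between arrays of a group was 0.22 or more for these 4.

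Other miRNAs reported to act on Activin, Nodal or TGF-beta signalling were set beside the members as a list of 9, chosen with earlier results known. At least 1 array detected 8 of them, and 4 were tested, of which 1 was higher with Activin past the threshold and 0 were lower. That one was miR-302c, of a cluster known to restrain Nodal inhibitors in human ES cells, with a log2 fold change of 1.23 (SE 0.30, limma adjusted p = 0.00597) and groups that overlapped. miR-302c was detected on 3 Activin arrays and 2 control arrays. It thus entered the test only through the group where it was higher, and its p does not allow for that. The share past the threshold was 1.27% over all 79, and miR-302c was the only call in it. That share is therefore no separate background for the list. The call held under 4 of 21 alternative fits and was lost under all 5 other scalings and backgrounds, with adjusted p of 0.00202 to 0.998 over the 21. miR-15b had a log2 fold change of 0.43 and miR-15a one of 0.32. miR-15 represses a Nodal receptor in Xenopus. miR-21, which represses the inhibitor Smad7, was at 0.30. None of these last 3 passed, with limma adjusted p of 0.529 to 0.619. The median of the 4 was 0.37, against 0.17 for all 79.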

How the data were processed

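Per the file headers, Agilent Feature Extraction 10.7.3.1 wrote the deposited spot intensities (per the submitters' processing notes, 10.1.1), background-subtracted on a linear scale with no scaling between arrays named. Detection, outlier and saturation flags are the authors' deposited software calls. The deposited series table holds the same intensities on all 13715 spots of each array. Cy3 label had been put on 100 ng of total RNA, per the labels.

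Spots without outlier flags were averaged per probe and then per miRNA, scaled, floored (percentile 1 of detected miRNAs) and converted to log2. The test covered 79 mouse miRNAs detected on all 3 arrays of a group. limma 3.58.1 in R 4.3.3 (lmFit, eBayes, two-sided, threshold 0.05) compared Activin with control. Variances were pooled almost fully (194 prior degrees of freedom), so SEs were 0.293 to 0.310. The fit was tested on simulated data with independent noise, no shifts shared within an array and effects larger than those of the members. How it performs in a setting like these arrays was thus not tested. Array number limits precision. All members, their star strands, the 3 closest miRNAs of each member and tested members of the pathway list are named by rule. Members and lists were chosen with earlier results of these data known. Sequences and gene names are from RefSeq, GRCm38.p6. The files name mm9 for the design. miR-23a* and miR-23b* had no values under these names on the arrays, so they were not analysed here.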

Additional observations from a re-analysis of the deposited data

How the results depend on the processing

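No member passed the threshold under any alternative. miR-23a and miR-27a kept a log2 fold change above 0 under 21 of 22 alternative fits each (adjusted p of at least 0.138) and turned below 0 with normexp background, run on spot medians, at -0.28 and -0.16. normexp gave -0.46 for miR-23b, -0.21 for miR-24, -0.64 for miR-27b and 0.17 for the difference in the miR-23a to miR-23b ratio. miR-23b turned to -0.12 and miR-24 to -0.013 with the 75th percentile of all probes, and miR-23b to -0.034 without scaling, -0.22 with quantile scaling and -0.10 with median centring. The software's gene signal gave -0.027 for miR-23b and -0.080 for miR-24. Without both dim arrays miR-23b was at -0.28 and miR-24 at -0.0038, also on the same 79 miRNAs. All control arrays and Activin (+) 1 lay in slide row 1, and Activin (+) 2 and Activin (+) 3 in row 2. Group and row were thus partly confounded. Slide row as a block, and row 1 alone, where Activin (+) 1 stood against the control arrays, gave -0.012 for miR-23b. Both gave 0.46 for miR-24, its highest value over 22 alternative fits, 0.68 for miR-23a and 0.51 for miR-27a. Each column comparison was 1 array minus 1 array. In column 1 these were the dim Activin (+) 2 and Activin (-) 1, and in column 2 Activin (+) 3 and Activin (-) 2. Within slide column 2 miR-23b was at -0.47, miR-24 at -0.15 and miR-27b at -0.46, and the differences in the miR-23a to miR-23b and miR-27a to miR-27b ratios were 0.77 and 0.94. Within column 1 miR-27b was at 0.16. Within columns 1 and 2 miR-27a was at 0.97 and 0.48 and miR-23a at 0.91 and 0.30. The cause of these changes was not tested.

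Leaving out 1 array at a time gave log2 fold changes of 0.32 to 0.70 for miR-23a, 0.29 to 0.73 for miR-27a, -0.13 to 0.17 for miR-23b, -0.18 to 0.05 for miR-27b and -0.095 to 0.30 for miR-24. The ratio differences were 0.31 to 0.62 for miR-23 and 0.46 to 0.81 for miR-27. Of all miRNAs tested with limma, 0 to 1 passed when an array was left out. The count was 0 with each other scaling, normexp, each probe summary, the higher floor, no filter (611 tested) and slide row as a block. It was also 0 without both dim arrays (115 tested), and 2 without them on the same 79. With detection on all arrays (53 tested) the count was 0 too. miR-302c, the 1 call of the main fit, was not detected on all arrays, so it was not retested among those 53.

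Deviations of same-numbered arrays from their group means had r of -0.64, -0.09 and 0.34. Different-numbered arrays gave r of -0.61 to 0.66. With 3 arrays per group, this check cannot decide whether the numbers pair the samples. With the replicate block the count stayed at 1, miR-23a had an adjusted p = 0.679 in the limma fit at 0.50 and miR-27a 0.679 at 0.51. The member pairs had a median SD of log2 ratio of 0.296, and 0.247 without both dim arrays, where all pairs had 0.311.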
